A study of Mus musculus with 4 samples.

Results

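The genes described here are 10 members of the integrated stress response and of serine synthesis, Atf4, Atf5, Ddit3, Trib3, Nupr1, Asns, Phgdh, Psat1, Psph and Shmt2. They were taken by symbol from a matrix of 20325 genes, and all 10 were found there and passed the filter on low counts. Expression was measured by RNA sequencing in mouse C3H10T1/2 cells, a multipotent mesenchymal line from C3H embryos, at passage 10 to 15 in DMEM with serum. All cells carried a stably expressed H3.3 transgene with a FLAG-HA tag, which was wild type in the WT group (n = 2 libraries) and carried the lysine-to-methionine substitution K36M in the K36M group (n = 2 libraries). H3.3 is the histone H3 variant deposited outside replication, and its K36M form is known to inhibit H3K36 methyltransferases. The promoter that drove the transgenes, and whether each line was 1 clone or a pool, are not given in those labels.

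The integrated stress response is a common answer of cells to amino acid shortage, unfolded proteins, viral RNA or heme deficiency. Any of 4 kinases then phosphorylates the translation factor eIF2, most translation slows, and the mRNAs of a few bZIP transcription factors, among them ATF4, are translated more. ATF4 in turn drives genes for amino acid synthesis, amino acid import and tRNA charging, together with its own feedback regulators. Serine synthesis branches from glycolysis at 3-phosphoglycerate and runs through PHGDH, PSAT1 and PSPH, and SHMT2 then splits serine into glycine and a folate-bound carbon in mitochondria. Because ATF4 is controlled largely in translation, mRNA values do not measure its protein.

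Totals ranged from 23343297 to 56041798 expected counts per library, with mean depth 1.85 times greater in K36M than in WT. Levels are given as CPM, expected counts per library of equal size, with TMM factors that adjust for composition. They are not divided by gene length, so they compare 1 gene between libraries and not 2 genes with each other. Since nothing in the labels ties the replicates to separate cultures, each p-value reflects library-to-library spread alone, and that spread may be technical. H3f3a and H3f3b, the H3.3 genes, had means of 691 ± 5.27 and 1000 ± 27.2 CPM in the WT libraries and 399 ± 14.6 and 828 ± 22.1 CPM in the K36M libraries (± SD, n = 2). Whether transgene reads were counted there is not known, so they do not check the labels. Mesenchymal markers were abundant, with a summed level of 30926 to 31264 CPM in WT and 23125 to 24839 CPM in K36M over 9 genes, of which 3 were called higher in K36M (Col1a1, Twist1 and Thy1) and 5 lower (among them Col3a1, Col1a2 and Vim). Markers of other cell types moved with the groups. Over 7 blood and macrophage markers the sum was 3.55 to 3.61 CPM in WT and 34.0 to 36.025 CPM in K36M. Of the K36M sums, 25.3 and 26.7 CPM were the globin gene Hba-a1. Lyz2 rose from 1.90 and 1.65 to 6.41 and 6.25 CPM, and of 4 tested markers 3 were called higher and 0 lower. Hbb-b1 was at 0 in all 4 libraries, and Ptprc at 0 in both WT libraries and at 0.141 and 0.201 CPM in K36M. Over 7 epithelial markers the sum was 11.0 to 12.1 CPM in WT and 24.3 to 25.8 CPM in K36M, with Epcam and Cldn4 at 0 throughout. Within that list Cdh1 went from 5.89 and 5.56 to 22.3 and 24.1 CPM, and Krt14 the other way, from 5.97 and 5.26 to 0.775 and 0.719 CPM. Endothelial markers (5 genes) summed to 28.0 to 29.8 and 6.71 to 7.32 CPM, where Tek fell (28.9 and 27.3 to 4.88 and 4.58 CPM) and Cdh5 rose (0.847 and 0.434 to 2.25 and 1.87 CPM). The sums for neural and glial markers (6 genes, mostly Mtap2) were 180 to 181 and 61.9 to 62.8 CPM. In this list Tubb3 rose from 13.4 and 12.8 to 25.7 and 24.8 CPM, while 3 tested genes were called lower. The part of these markers of other cell types in the results was not tested.

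All 10 genes were higher in K36M cells, from 1.22-fold for Asns to 3.89-fold for Nupr1. Every one passed an adjusted p of 0.05 (edgeR quasi-likelihood F test, Benjamini-Hochberg over 13162 genes, largest adjusted p = 2.06e-06), where 38.5% of all tested genes were called higher, 37.1% lower and 75.6% in either direction. Both K36M libraries stood above both WT libraries for all 10, against 44.0% of tested genes. At least 1.2-fold higher calls numbered 10 of 10 against 30.6% of tested genes, at least 1.5-fold calls 6 of 10 against 18.7%, and at least 2-fold calls 2 of 10 (Nupr1 and Psat1) against 12.7%. The median log2 fold change was 0.70 over the 10 genes and 0.00 over all genes tested. These genes were chosen with earlier results of these data known, and the 1.2-fold cut lies just under their smallest fold. The shares are therefore a description and not a test of the 10 genes. Single genes had between 672 and 40266 expected counts per library, and replicates of 1 group differed by at most 13.2%. In RNA from whole cultures, more cells expressing a gene and more RNA per cell cannot be told apart.

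**Figure D1:**
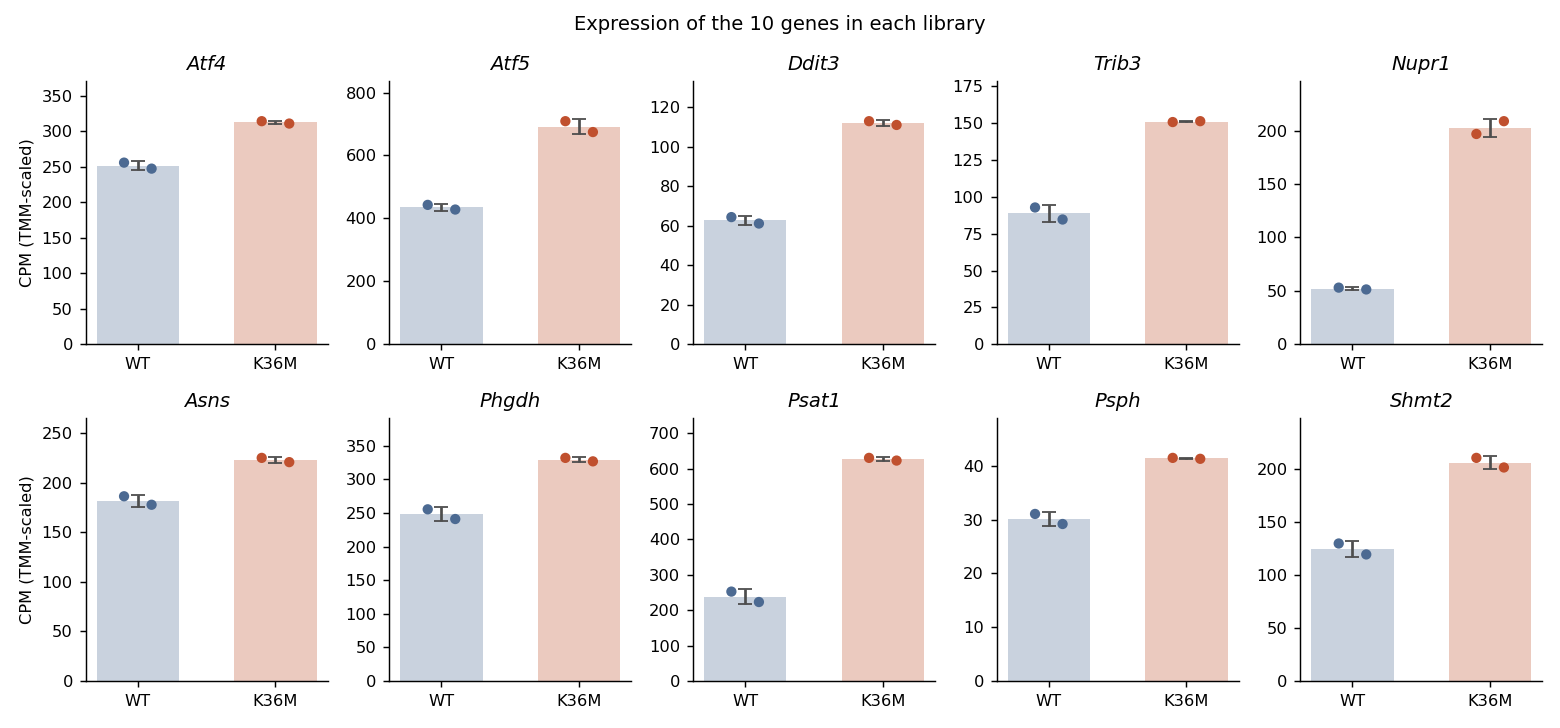
Level of each gene in CPM (y axis, from 0, a different range in each panel) in the WT and K36M libraries. Points are libraries, bars are means and whiskers are SD (n = 2). In every panel both K36M points lie above both WT points, narrowly for Asns (225 and 221 against 186 and 178 CPM) and widely for Nupr1 (197 and 209 against 53.0 and 51.3 CPM).

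Of the 3 transcription factors, the upstream factor had the smallest fold. Atf4, which encodes the central bZIP activator of the response, had 256 and 247 CPM in WT replicates 1 and 2 and 314 and 311 CPM in K36M replicates 1 and 2. It rose 1.24-fold, with a log2 fold change of 0.31 ± 0.037 (SE) and an adjusted p of 3.86e-07. Atf5, a related bZIP factor whose mRNA is also translated preferentially under stress, had 443 and 428 CPM in the WT libraries and 709 and 674 CPM in the K36M libraries. The gap between the groups was several times the difference between replicates, and the rise was 1.59-fold (log2 fold change 0.67 ± 0.037, adjusted p = 1.07e-11). Ddit3 encodes CHOP, an ATF4-induced factor known for promoting cell death when stress persists. Its level was 64.4 and 61.2 CPM in WT and 113 and 111 CPM in K36M, 1.78-fold higher (log2 fold change 0.84 ± 0.046, adjusted p = 8.14e-12).

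Atf5 lies over exons of the opposite-strand genes Nup62 and Il4i1 in the GENCODE annotation, and whether the counting used strand is not given, so reads in the overlap cannot be assigned with certainty. Il4i1 was at or below 0.088 CPM in every library. Nup62, a nuclear pore gene, was itself 1.49-fold higher in K36M (50.3 and 51.4 against 76.0 and 75.5 CPM).

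The feedback and stress protein genes held the member with the largest fold. Nupr1, which encodes a small stress-induced chromatin-associated protein, had 53.0 and 51.3 CPM in the WT libraries and 197 and 209 CPM in the K36M libraries. Both K36M libraries were far above WT, with a log2 fold change of 1.96 ± 0.047 (adjusted p = 2.88e-17), and 7.4% of tested genes had a larger log2 fold change. Trib3 encodes a pseudokinase that is induced by ATF4 and CHOP and restrains them. It had 92.8 and 84.6 CPM in the WT libraries and 151 CPM in each K36M library, a 1.70-fold rise (log2 fold change 0.77 ± 0.047, adjusted p = 3.63e-11). Asns encodes asparagine synthetase, a classical target of amino acid starvation signalling. Its 186 and 178 CPM in WT and 225 and 221 CPM in K36M made it the gene of the 10 with the smallest change, 1.22-fold (log2 fold change 0.29 ± 0.039, adjusted p = 2.06e-06).

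These 3 genes were also those whose promoters held the letters of a C/EBP-ATF composite element, the DNA motif bound by ATF4 with a C/EBP partner, and they are shown for that reason. All 10 genes matched the RefSeq promoter table (build GRCm38.p6, 250 bases before to 50 after the start), with 12 promoters because Atf5 and Psat1 have 2 starts each. The core TGATGNAA, searched as an exact match on both strands, was found in 3 of the 12, and in 3.97% of all 32851 promoters of the same length. The cAMP response element TGACGTCA (1.79% of all promoters) and the ERSE, the endoplasmic reticulum stress element (0.119%), had no match in the 12. A match is a description of letters and does not show a bound site, and no match says only that the letters are absent from this window. The sequences below run 5′ to 3′ along the gene's strand, which is the minus strand for all 3, with the match in capitals. The Nupr1 promoter lies at chr7:126625421-126625720 and its match begins 110 bases before the start site. The Asns promoter lies at chr6:7693160-7693459, with a match 23 bases before the start, and the Trib3 promoter at chr2:152344011-152344310, with a match 14 bases after it.
Nupr1: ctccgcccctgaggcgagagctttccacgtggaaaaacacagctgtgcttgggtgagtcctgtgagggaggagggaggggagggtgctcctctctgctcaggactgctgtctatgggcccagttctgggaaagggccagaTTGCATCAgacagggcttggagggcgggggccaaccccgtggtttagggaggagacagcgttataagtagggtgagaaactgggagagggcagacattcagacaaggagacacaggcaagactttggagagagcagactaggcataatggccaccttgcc
Asns: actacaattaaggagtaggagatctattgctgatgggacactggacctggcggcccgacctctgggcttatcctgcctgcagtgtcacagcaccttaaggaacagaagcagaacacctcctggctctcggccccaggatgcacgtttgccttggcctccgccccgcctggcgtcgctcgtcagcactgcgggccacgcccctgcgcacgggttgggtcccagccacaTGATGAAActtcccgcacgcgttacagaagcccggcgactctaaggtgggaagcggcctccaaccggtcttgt
Trib3: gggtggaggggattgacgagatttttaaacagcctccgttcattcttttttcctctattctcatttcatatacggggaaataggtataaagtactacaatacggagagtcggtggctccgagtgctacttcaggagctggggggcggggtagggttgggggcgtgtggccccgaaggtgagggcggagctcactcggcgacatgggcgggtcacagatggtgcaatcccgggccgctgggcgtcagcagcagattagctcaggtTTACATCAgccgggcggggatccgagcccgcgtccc
The gene with the largest fold of the 10 (Nupr1) and the gene with the smallest (Asns) are thus both among the 3 with a match, and Psat1, the second by fold, has none in either of its windows.

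Transcripts for all 3 steps of serine synthesis rose, and by unequal amounts. Phgdh, which encodes the dehydrogenase that commits 3-phosphoglycerate to serine, had 255 and 241 CPM in the WT libraries and 332 and 327 CPM in the K36M libraries, 1.33-fold higher (log2 fold change 0.41 ± 0.038, adjusted p = 1.98e-08). Psat1, the aminotransferase gene of the next step, had 252 and 223 CPM in the WT libraries and 630 and 623 CPM in the K36M libraries. Its WT libraries differed by 13.2%, the widest replicate gap among the 10 genes, yet the groups lay far apart, with a 2.63-fold rise (log2 fold change 1.40 ± 0.046, adjusted p = 3.17e-15). Psph, the phosphatase gene of the last step, had 31.1 and 29.2 CPM in the WT libraries and 41.5 and 41.3 CPM in the K36M libraries, 1.37-fold higher (log2 fold change 0.46 ± 0.053, adjusted p = 3.19e-07). Shmt2, the mitochondrial serine hydroxymethyltransferase gene, had 130 and 120 CPM in the WT libraries and 211 and 202 CPM in the K36M libraries, 1.65-fold higher (log2 fold change 0.73 ± 0.045, adjusted p = 4.49e-11).

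Psph shares exon sequence with the opposite-strand gene Cct6a, a chaperonin subunit gene that was 1.15-fold higher (200 and 184 against 217 and 226 CPM). Here too reads in the overlap cannot be assigned with certainty. Cct6a had 4957 and 4234 expected counts in the WT libraries, against 770 and 672 for Psph. The Psph values, and the ratio of Psph to Phgdh below, carry this limit. Shmt2 shares exon sequence with Ndufa4l2, which stayed at or below 0.434 CPM in every library.

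**Figure D2:**
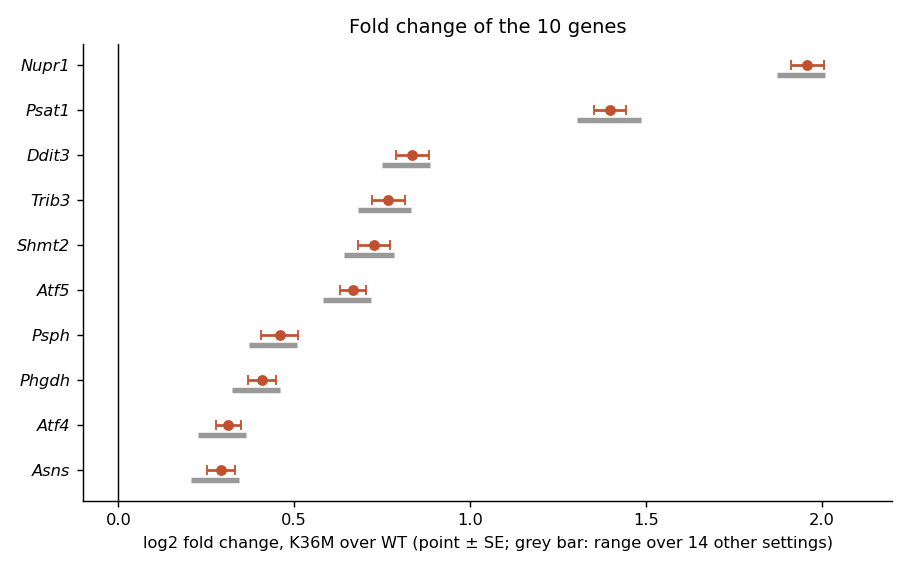
Log2 fold change of K36M over WT (x axis) for each gene, ordered by size. Points are estimates, whiskers ± 1 SE and grey bars the range over 14 other settings. Nupr1 (1.96) and Psat1 (1.40) stand apart on the right, and Atf4 (0.31) and Asns (0.29) have the smallest values, all above 0.

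By fold the order was Nupr1, Psat1, Ddit3, Trib3, Shmt2, Atf5, Psph, Phgdh, Atf4 and Asns. The share of tested genes with a larger log2 fold change ran from 7.4% for Nupr1 to 29.7% for Atf4 and 30.7% for Asns. Ranges of ± 1 SE overlapped between neighbours from Ddit3 to Atf5, between Psph and Phgdh, and between Atf4 and Asns. Nupr1 and Psat1 did not overlap with each other or with Ddit3, nor Atf5 with Psph or Phgdh with Atf4. No test was made between neighbours.

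Ratios of 2 genes within a library do not depend on how libraries are scaled. Their shifts follow from the folds of the 2 genes, so they restate the unequal folds above library by library. The ratio of Psat1 to Phgdh expected counts was 0.988 and 0.925 in WT and 1.90 and 1.91 in K36M, a shift of 1.99-fold in this ratio of transcripts. The ratio of Psph to Phgdh was 0.122 and 0.121 in WT and 0.125 and 0.127 in K36M, a shift of 1.04-fold. Ddit3 to Atf4 went from 0.252 and 0.247 to 0.360 and 0.358, and Atf5 to Atf4 from 1.73 in each WT library to 2.26 and 2.17. The groups did not overlap for these 4 ratios, by a narrow gap for Psph to Phgdh. How often ratios of other gene pairs separate was not counted, so the separation is only described. Shmt2 to its cytosolic counterpart Shmt1 gave 8.02 and 6.36 in WT and 7.01 and 7.08 in K36M, with the K36M values between the WT values. An exact permutation test on 2 against 2 libraries cannot give a two-sided p below 0.333, so the ratios are given without a test.

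**Figure D3:**
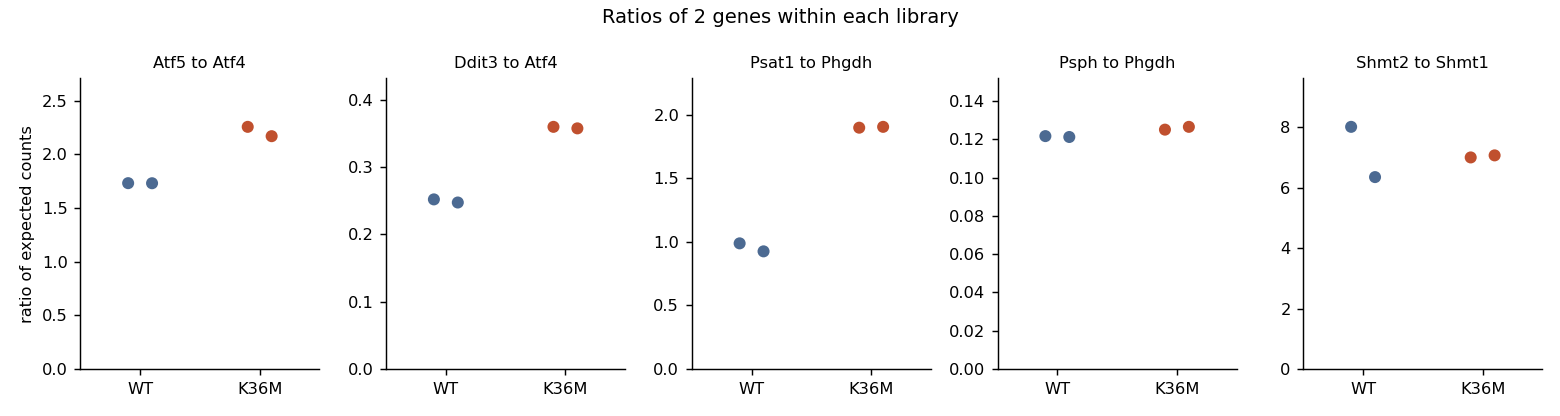
Ratio of expected counts of 2 genes (y axis, from 0) in each library, by group; each point is 1 library. Psat1 to Phgdh moves from 0.988 and 0.925 in WT to 1.90 and 1.91 in K36M, while Psph to Phgdh stays between 0.121 and 0.127 and Shmt2 to Shmt1 overlaps between groups.

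Most genes next to serine synthesis were also higher in K36M. Of 22 tested one-carbon, glycine and folate genes 17 rose and 4 fell, with a median log2 fold change of 0.56. Over all genes tested, 38.5% were called higher and 37.1% lower. Gcat, which encodes an enzyme of threonine and glycine metabolism, rose from 10.5 ± 0.665 to 32.9 ± 0.0984 CPM, 3.13-fold (adjusted p = 2.18e-13). Sfxn1, the mitochondrial serine transporter gene, rose from 60.2 ± 0.0155 to 130 ± 3.03 CPM, 2.15-fold (adjusted p = 8.45e-14). Mthfd2, the mitochondrial folate dehydrogenase gene and an ATF4 target, rose 1.61-fold from 51.1 and 46.8 to 81.1 and 76.1 CPM, and Shmt1 rose 1.68-fold from 16.2 and 18.8 to 30.1 and 28.5 CPM. Gldc, the glycine decarboxylase gene, rose 6.54-fold from very little, with 3 and 5 expected counts in WT and 73 and 30 in K36M. The 4 fallen genes, named after their values were seen, were Amt (log2 fold change -0.64), Mat2a (-0.22), Aldh1l2 (-0.18) and Srr (-0.16). Amt, like Gldc a gene of glycine cleavage, had 2.50 and 2.95 CPM in WT and 1.87 and 1.58 CPM in K36M. Without WT replicate 2 the fallen genes of this list numbered 2 in place of 4.

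In glycolysis on either side of the branch, 4 of 5 enzymes around 3-phosphoglycerate rose and 0 fell (median 0.30). The shares over all genes tested were 38.5% higher and 37.1% lower. Before the branch, Gapdh rose 1.65-fold (1357 and 1338 against 2323 and 2133 CPM) and Pgk1 1.23-fold. After it, Pkm2 rose 1.30-fold. That symbol stands here for the whole pyruvate kinase gene Pkm, whose splice forms were not counted apart. Gapdh has many near-identical pseudogenes in the mouse, so its count is less certain. Without K36M replicate 1 there was 1 gene lower. Pgam1, the mutase that draws 3-phosphoglycerate onward in glycolysis, was the member not past the threshold, with a log2 fold change of -0.04; it was named after its values were seen.

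**Figure D4:**
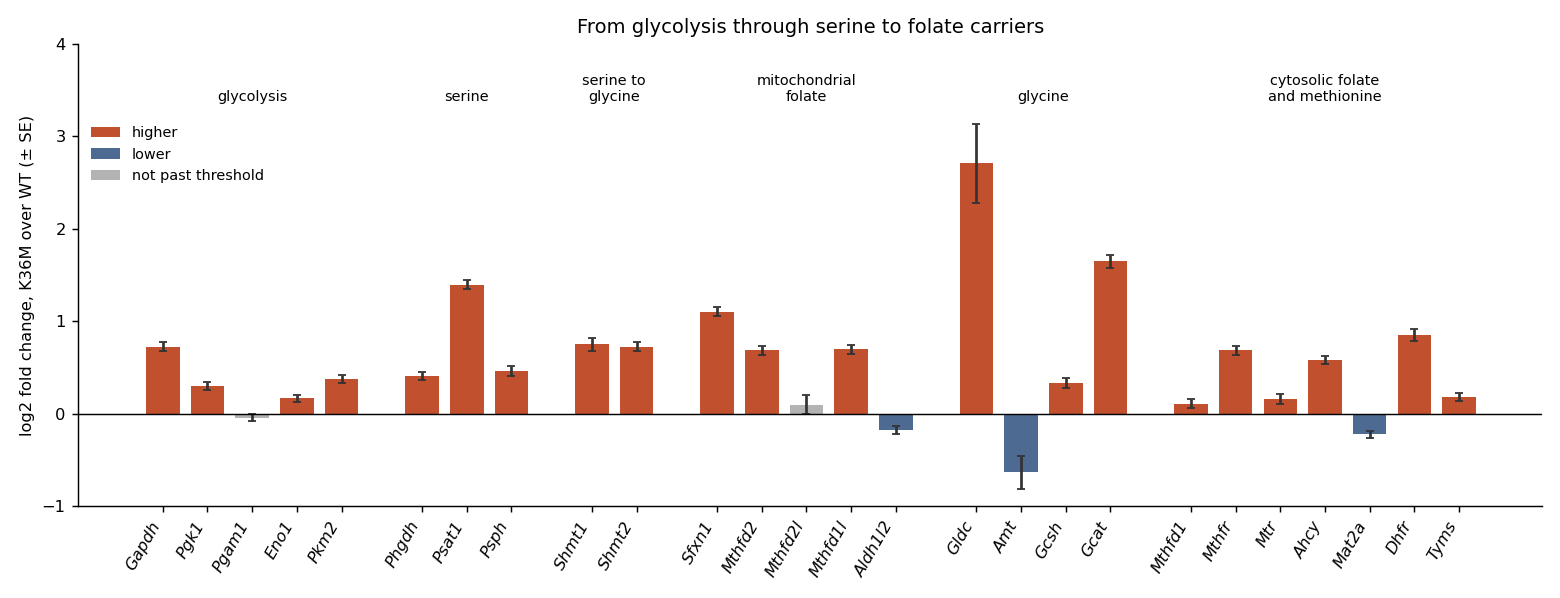
Log2 fold change of K36M over WT (y axis, bars ± SE) for enzymes and carriers from glycolysis through serine and glycine to the folate cycle. Red bars passed the test as higher, blue as lower and grey did not pass. Psat1 (1.40), Sfxn1 (1.10), Gcat (1.65) and Gldc (2.71) are the tallest bars, and 2 grey bars, for Pgam1 and Mthfd2l, lie near 0.

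The kinases that start the response did not rise with its targets. Eif2ak3, which encodes PERK, the sensor of the endoplasmic reticulum, fell from 40.1 and 42.9 to 31.7 CPM in each K36M library, 1.31-fold (adjusted p = 2.46e-06). Eif2ak2 and Eif2ak1, the genes of PKR and of the heme-regulated kinase, were 1.11-fold and 1.08-fold lower (adjusted p = 0.0115 and 0.0407). Of 14 alternatives, 9 kept the Eif2ak2 call and 5 the Eif2ak1 call. In edgeR both were lost under upper quartile scaling (adjusted p = 0.062 for Eif2ak2 and 0.18 for Eif2ak1) and total counts (0.0925 and 0.25). The DESeq2 Wald test lost both as well (0.0704 and 0.196). Both were also lost without WT replicate 2 (log2 fold change -0.133 and -0.0809) and without K36M replicate 1 (-0.0999 and -0.0984). Eif2ak4, which encodes the amino acid sensor GCN2, had 38.4 and 39.8 CPM in the WT libraries and 37.4 and 36.7 CPM in the K36M libraries and did not pass (adjusted p = 0.179), but was lower under the authors' scaling (0.00745). Ppp1r15a, the stress-induced phosphatase subunit GADD34 that reverses eIF2 phosphorylation, rose 1.41-fold from 26.4 and 28.6 to 38.2 and 39.5 CPM, while its constitutive relative Ppp1r15b had a log2 fold change of 0.02 (adjusted p = 0.581), and of -0.061 under the authors' scaling. Dnajc3, which encodes an inhibitor of PERK, fell 1.47-fold, and Eif2b3, an eIF2B subunit gene, rose 1.46-fold. Of 17 kinases and eIF2 regulators 4 rose and 6 fell (median 0.02), beside 38.5% higher and 37.1% lower over all genes tested. Transcript levels do not measure kinase activity or eIF2 phosphorylation.

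Of 25 tested other targets of ATF4 and CHOP, 20 rose and 2 fell, beside 38.5% higher and 37.1% lower over all genes tested. Their median log2 fold change was 0.68, close to the 0.70 of the 10 genes. The lists are not separate, because Ppp1r15a, Mthfd2 and Herpud1, all called higher, were each counted in another list as well. Slc6a9, a glycine transporter gene, rose 3.34-fold (37.3 and 38.7 against 131 and 122 CPM), and Cth, the cystathionine lyase gene that makes cysteine, 2.77-fold (4.32 and 4.74 against 12.7 and 12.3 CPM). Stc2, a secreted glycoprotein gene, was 4.02-fold higher at low levels (0.282 and 0.261 against 1.25 and 0.892 CPM). Chac1, which encodes a glutathione-degrading enzyme induced by ATF4 and CHOP, rose 1.94-fold (20.5 and 20.3 against 40.4 and 38.7 CPM). Sesn2, a brake on mTORC1, rose 1.23-fold (24.6 and 22.6 against 30.1 and 27.7 CPM). Slc7a11, the cystine importer gene, rose 1.60-fold, with WT libraries that differed (16.3 and 11.5 CPM) against 21.7 and 23.3 CPM in K36M. Its log2 fold change of 0.68 was 0.45 without WT replicate 2 and 0.96 without WT replicate 1. The fallen pair, named after their values were seen, was Ddit4 (log2 fold change -0.48), an mTORC1 inhibitor, and Vldlr (-0.23), a lipoprotein receptor gene.

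Of 12 cytosolic tRNA synthetase genes usually induced with ATF4, 11 rose and 0 fell (median 0.53). Among all genes tested, 38.5% were called higher and 37.1% lower. Wars, Cars and Gars, for tryptophan, cysteine and glycine, rose 1.69-fold, 1.58-fold and 1.57-fold, and Mars, named after its values were seen, had a log2 fold change of -0.05 and did not pass. Of the 8 others, 6 rose and 1 fell (median 0.25), with Vars, Kars and Rars, for valine, lysine and arginine, 2.18-fold, 1.48-fold and 1.28-fold higher. The count of fallen genes among those 8 was 0 without WT replicate 1 and 2 without K36M replicate 2. The difference between both lists was not tested.

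Of 20 genes for folding in the endoplasmic reticulum 8 rose and 7 fell, with a median log2 fold change of 0.07, shares close to those over all genes tested (38.5% higher and 37.1% lower). Hspa5, which encodes the chief chaperone BiP, had 643 and 633 CPM in the WT libraries and 657 and 685 CPM in the K36M libraries (log2 fold change 0.07, adjusted p = 0.075). It was called higher without K36M replicate 1 (adjusted p = 0.0022), under upper quartile scaling (0.00916), total counts (0.00477) and at a mean of 5 CPM (0.0212), and had a log2 fold change of -0.013 under the authors' scaling. Xbp1, the factor spliced by IRE1, rose 1.25-fold (51.0 and 48.8 against 62.7 and 62.4 CPM). Canx, the calnexin gene, rose 1.49-fold, while the co-chaperone gene Dnajb9, a usual target of spliced XBP1, and the disulfide isomerase gene Pdia6 fell 1.52-fold and 1.45-fold.

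**Figure D5:**
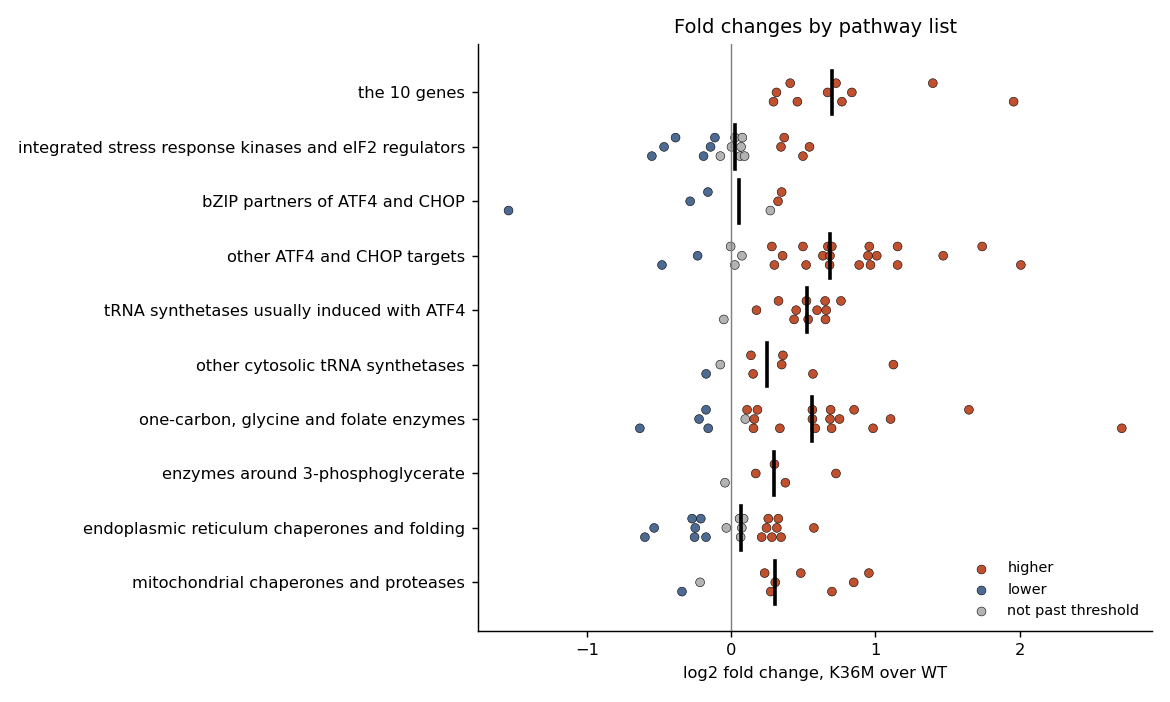
Log2 fold change of K36M over WT (x axis) for each tested gene of the 10 genes and of 9 pathway lists (rows). Points are genes, coloured by call, and black ticks are medians. The rows of the 10 genes (median 0.70) and of other ATF4 and CHOP targets (0.68) lie to the right, and those of the eIF2 kinases and regulators (0.02) and of folding in the endoplasmic reticulum (0.07) straddle 0.

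None of the 10 genes and none of the 125 genes in the pathway lists was in the authors' deposited table of 594 genes, which holds ratios over 10 or under 0.1.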

How the data were processed

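RNA sequencing of 2 WT and 2 K36M libraries was analysed, grouped by sample title. The matrix deposited by the authors holds expected counts per gene, from RSEM per the file headers. Bowtie 1.0.0, RSEM 1.2.12 and build mm9 are named in the submitters' processing notes. The authors' second deposited table gives log2 values, which match the matrix after 1 scaling factor per library, an offset of 1 and log2 (largest difference 5e-09), and the authors' fold, a linear ratio. Expected counts were rounded, then tested in R 4.3.3 with edgeR 4.0.16 (filterByExpr, TMM, quasi-likelihood F test, Benjamini-Hochberg, threshold 0.05), which kept 13162 genes and had 2 residual and 15.7 prior degrees of freedom. The SE is the absolute log2 fold change divided by the square root of F. The script was checked on simulated counts. Alternatives were other scalings, filters, DESeq2 1.42.0, limma-voom 3.58.1, a replicate block, thinning, and leaving out each library. Named genes were the 10 members, 13 listed genes, and in each list the 3 with the largest change among called genes with separated groups and a mean of at least 1 CPM in 1 group. Members and lists were chosen with earlier results of these data known. Promoters came from RefSeq, and gene overlaps from GENCODE vM21.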

Additional observations from a re-analysis of the deposited data

How the results depend on the processing

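All 10 genes kept their direction and their call in each of 14 alternatives, and their smallest log2 fold change in any alternative was 0.21 (Asns under the authors' factors). The authors' factors moved the median of all genes to -0.08 and gave 4360 genes higher and 5709 lower in place of 5070 and 4879. Counts in the pathway lists changed by over 1.5 times as follows. With upper quartile factors and with total counts, 7 kinases and eIF2 regulators rose in place of 4. Under the authors' factors the fallen genes numbered 1 in place of 0 among ATF4-linked tRNA synthetases, 2 in place of 1 among the other synthetases, 1 in place of 0 among the enzymes around 3-phosphoglycerate and 2 in place of 1 among mitochondrial chaperones and proteases. That last count was also 2 with no low-count filter, in thinned libraries, and without WT replicate 1 or K36M replicate 2. Fallen one-carbon genes numbered 2 in place of 4 at a mean of 5 CPM (fewer genes tested), with the DESeq2 Wald test and without WT replicate 2. Leaving out 1 library gave 0 to 2 fallen genes among the other synthetases, 0 to 1 around 3-phosphoglycerate, 1 to 2 among mitochondrial genes and 2 to 4 among one-carbon genes. Ppp1r15b changed sign under the authors' factors (-0.061) and without WT replicate 2 (-0.0060, against up to 0.045 without WT replicate 1), and Hspa5 under the authors' factors (-0.013). The cause was not tested where none is named. Same-numbered libraries did not deviate together (correlation 0.00 across genes), so the numbers are not taken as pairs, and with the replicate block 5008 genes were higher and 4796 lower, with all 10 genes still called higher.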

Other observations

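Most mitochondrial chaperone and protease genes, which ATF5 is known to regulate in some cells, were higher in K36M. Of 9 tested genes 7 rose and 1 fell (median log2 fold change 0.30), beside 38.5% higher and 37.1% lower over all genes tested. Lonp1, which encodes a matrix protease, rose from 172 ± 2.22 to 333 ± 13.8 CPM, 1.94-fold (adjusted p = 1.21e-13). Hspa9, the mitochondrial HSP70 gene, rose 1.80-fold from 691 and 675 CPM to 1217 and 1243 CPM, and the chaperonin gene Hspd1 1.62-fold from 313 and 305 CPM to 484 and 519 CPM. Without WT replicate 1 or K36M replicate 2 the fallen genes numbered 2.

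Of 6 bZIP partners of ATF4 and CHOP 2 were higher and 3 lower (median 0.05), beside 38.5% higher and 37.1% lower over all genes tested. Cebpd fell 2.92-fold from 33.9 and 33.1 CPM to 12.2 and 10.5 CPM (adjusted p = 1.31e-12). Nfe2l2, the NRF2 gene, and Cebpb, which encodes a C/EBP partner of ATF4, rose 1.27-fold and 1.25-fold. Atf3, named after its values were seen, had 2.62 and 2.78 CPM in the WT libraries and 3.36 and 3.11 CPM in the K36M libraries and did not pass (adjusted p = 0.12).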
